A study of Mus musculus with 13 samples.

Results

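Macrophages of the sciatic nerve, a peripheral nerve, were set against macrophages of the central nervous system, taken as the equal-weight mean of optic nerve macrophages and brain microglia. All 13 bulk RNA sequencing libraries of the count table entered the comparison, 4 from sciatic nerve, 4 from optic nerve and 5 from brain, and every gene was considered: 13246 of 48587 passed the filter on low counts and were tested. All libraries are total RNA of C57BL/6J mice, and the labels attach no allele or treatment to any of them. The labels are silent on age, sex, pooling of animals and the way the cells were isolated. The brain libraries carry a column prefix that the labels do not explain and were taken as brain because they were the only columns left for that group, so every brain value rests on this assignment. Nothing in the labels ties the replicates to separate animals, so the p-values measure the spread between these libraries, which may be technical in part. In bulk samples fewer cells of a type and less RNA per cell cannot be told apart.

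Microglia are the resident macrophages of brain tissue. They arise early in development, renew themselves locally, and keep a characteristic program that depends on transforming growth factor beta (TGF-beta) signals and on factors such as Sall1. The optic nerve is a tract of the central nervous system, myelinated by oligodendrocytes and sheathed by meninges, whereas the sciatic nerve is myelinated by Schwann cells and bundled in connective tissue. A gene on which the optic nerve and the brain agree while the sciatic nerve differs separates peripheral from central macrophages in a way that the brain alone does not decide.

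Total counts ran from 10.9 M to 23.5 M per library. Brain libraries 1 and 2 stood apart from brain 3, 4 and 5, and brain 1 had 3.79% of its counts on mitochondrial genes against at most 1.23% in the others. The labelled cell types were checked against defining markers, summed in CPM (counts per 1e6, scaled by the trimmed mean of M values). The 28 microglia identity genes summed to 15423 to 16252 CPM in sciatic nerve and 89478 to 133988 CPM in the 9 central libraries. The 24 genes of border and perivascular macrophages, the cells at the edge of the brain, summed to 24358 to 27698 CPM in sciatic nerve and 437 to 1247 CPM in the central libraries. Fibroblast markers (11 genes) summed to 198 to 418 CPM in sciatic nerve, highest in sciatic 1, and to 2.75 to 42.2 CPM in the central libraries. Mast cell markers (7 genes, 6 of them at 0 in every central library) summed to 1.44 to 10.4 CPM in sciatic nerve, highest in sciatic 4, and to at most 0.0755 CPM in the central libraries. Immediate early genes, which respond within minutes to stimulation or tissue dissociation, summed to 36856 to 43002 CPM in sciatic nerve, 20449 to 25029 CPM in optic nerve and 1287 to 1648 CPM in brain.

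Against the central mean 4907 genes were called, 37.0% of those tested, at an adjusted p under 0.05 by edgeR's quasi-likelihood test. Of these 2661 were higher (20.1% of the tested genes) and 2246 lower (17.0%) in sciatic nerve. A change of at least 2-fold was called for 1831 genes upward (13.8%) and 1551 downward (11.7%). The share of higher calls was 54.2% with the main scaling and 34.4% when libraries were scaled by total counts only, where 3669 genes were lower and the median log2 fold change of all genes was -0.34 instead of -0.02. The 4 sciatic libraries lay above all 9 central libraries for 1467 genes (11.1%) and below all of them for 1054 (7.96%).

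A call against the central mean does not say that both central sites differ from the sciatic nerve, since 4893 genes (36.9%) were also called between optic nerve and brain. The called genes were therefore sorted by their standing to each site. The largest class, 2263 genes or 46.1% of the calls, was called against brain but not against optic nerve, with 1287 higher and 976 lower. Another 300 were called against optic nerve only, 178 higher and 122 lower. For 780 genes both sites were called and the optic nerve lay between brain and sciatic nerve, 477 higher and 303 lower. For 933 genes (19.0% of the calls), 335 higher and 598 lower, both sites were called and optic nerve against brain was not, but the difference between the sites was not shown to be under 2-fold or a site differed by less than 2-fold from sciatic nerve. These genes are neither agreeing nor shown to differ between the central sites. Sciatic nerve was above one central site and below the other for 29 genes. The bar chart of classes gives all numbers.

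**Figure D1:**
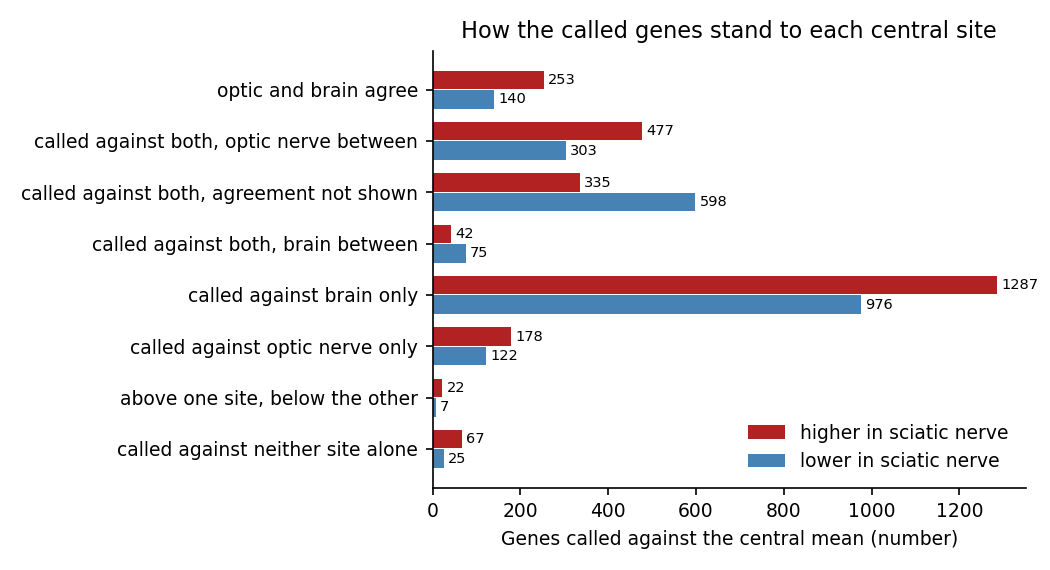
Genes called against the central mean (number on the horizontal axis) by how they stand to the optic nerve and to the brain, red for genes higher and blue for genes lower in sciatic nerve. The longest bars are the genes called against brain only, 1287 higher and 976 lower, and the genes on which optic nerve and brain agree number 253 and 140.

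Optic nerve and brain agreed for 393 genes, 253 higher (1.91% of the tested genes) and 140 lower (1.06%) in sciatic nerve, in all 2.97% of the genes tested and 8.01% of those called. Agreement required a called difference of at least 2-fold from each site in the same direction. It also required that optic nerve and brain differ by less than 2-fold in a pair of one-sided tests (adjusted p under 0.05), or that all 9 central libraries lie under 1 CPM. The equivalence test was met by 2439 of all tested genes (18.4%). Among the agreeing genes it admitted 95 of the higher and 136 of the lower ones, and the clause on low central levels alone admitted 158 higher and 4 lower ones. The 4 lower ones, 4933406J10Rik, Gm21814, Samd15 and Bach2it1, were under 1 CPM in every central library. Within the margin small differences remain possible: 13 of the 95 and 15 of the 136 were also called between optic nerve and brain. The clause on low central levels sets no margin between the sites. With the genes it admitted, 59 of the 253 higher and 15 of the 140 lower ones were called between optic nerve and brain. With a margin of 1.5-fold 158 higher and 4 lower genes agreed, and with a margin of 4-fold 466 and 539. Just inside the 2-fold margin stood Mad2l1bp, Slc12a7 and Phyhd1 (adjusted p of the equivalence test 0.0488, 0.0493 and 0.0495). Just outside stood Mib2, Nectin2 and Rab27a (0.0503, 0.0506 and 0.0511).

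The higher and the lower agreeing genes differed in kind. The higher ones had a median log2 fold change of 5.33 (5.16 with groups at 0 counts set to 3 counts, which applies to 84 genes) and a median of 9.86 CPM in sciatic nerve. For the 95 admitted by equivalence the median log2 fold change was 1.56. The lower ones had a median of -1.67 (-1.59 for those admitted by equivalence) and a median of 128 CPM in the central sites, and 113 of 140 still had at least 10 CPM in sciatic nerve. All 4 sciatic libraries lay beyond all 9 central libraries for 248 of the 253 and 128 of the 140, against 11.1% above and 7.96% below among all tested genes. The rule of agreement selects on these same libraries, so the lack of overlap is a description and no further support. The same holds for the single genes below. Over 21 refits with other settings, scalings or left-out libraries 57 higher and 61 lower genes agreed in every one, and over the 13 that leave out 1 library 160 and 81 did. The asymmetry follows partly from the definition, since the clause on low levels applies to the central sites only.

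**Figure D2:**
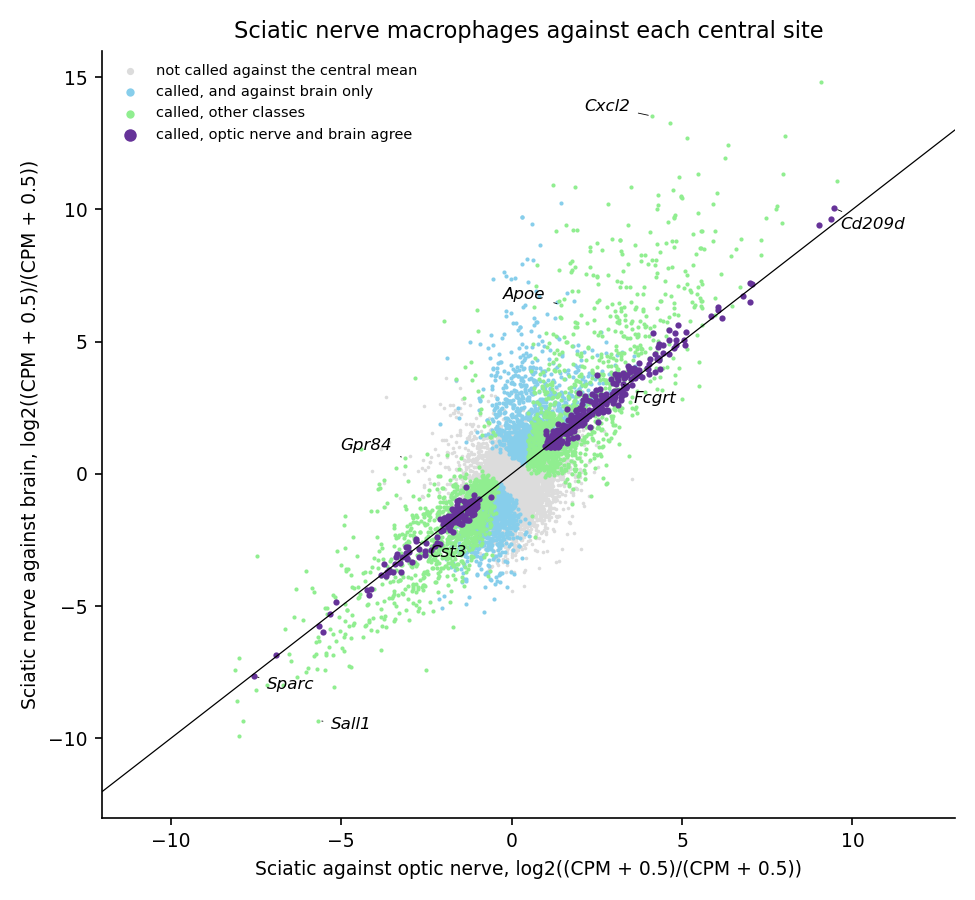
Each point is 1 tested gene, with the sciatic against optic nerve ratio on the horizontal and the sciatic nerve against brain ratio on the vertical axis, both as log2 of mean CPM with 0.5 added. Purple points, the genes on which the central sites agree, lie along the diagonal; blue points were called against brain only, and Gpr84 lies at a negative horizontal and a positive vertical value.

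Of the 10 higher agreeing genes with the largest smaller fold 4 were C-type lectins of the Cd209 family, relatives of the human receptor DC-SIGN that bind mannose- and fucose-containing sugars on pathogens and glycoproteins. Cd209e, Cd209d, Cd209b and Cd209c are adjacent protein-coding genes on chromosome 8 (chr8:3847973-3954746, GRCm38.p6), and all agreed. The 250 bases upstream of 3 of them are shown because these neighbours were higher together in sciatic nerve. Beside them stand those of 2 genes lower in sciatic nerve than at both central sites, Sparc and Havcr2. The sequences are from RefSeq (GRCm38.p6), which listed a promoter for 15 of the 20 genes named by the first rule (the 10 agreeing genes per direction with the largest smaller fold). They read 5′ to 3′ on the gene's strand in lower case, with motif matches in capitals.
Cd209e (chr8:3854287-3854536, minus strand): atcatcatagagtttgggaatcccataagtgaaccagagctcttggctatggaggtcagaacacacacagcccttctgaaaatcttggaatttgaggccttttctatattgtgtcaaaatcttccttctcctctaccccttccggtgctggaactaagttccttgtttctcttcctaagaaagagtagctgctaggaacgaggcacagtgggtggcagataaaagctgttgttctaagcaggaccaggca
Cd209d (chr8:3878500-3878749, minus strand): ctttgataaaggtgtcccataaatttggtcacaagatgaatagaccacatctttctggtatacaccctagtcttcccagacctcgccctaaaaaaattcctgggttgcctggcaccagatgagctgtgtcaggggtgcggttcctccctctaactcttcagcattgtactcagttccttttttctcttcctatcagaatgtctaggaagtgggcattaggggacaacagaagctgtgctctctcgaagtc
Cd209b (chr8:3926842-3927091, minus strand): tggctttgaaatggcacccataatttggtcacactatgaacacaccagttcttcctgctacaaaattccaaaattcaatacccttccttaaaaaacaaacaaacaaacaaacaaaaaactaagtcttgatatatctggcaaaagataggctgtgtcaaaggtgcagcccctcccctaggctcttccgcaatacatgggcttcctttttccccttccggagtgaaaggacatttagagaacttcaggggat
Sparc (chr11:55420081-55420330, minus strand): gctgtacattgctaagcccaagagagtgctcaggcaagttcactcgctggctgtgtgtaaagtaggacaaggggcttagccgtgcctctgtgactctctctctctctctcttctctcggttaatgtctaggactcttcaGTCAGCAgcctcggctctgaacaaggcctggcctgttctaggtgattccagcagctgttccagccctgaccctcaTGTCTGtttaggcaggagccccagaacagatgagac
Havcr2 (chr11:46454681-46454930, plus strand): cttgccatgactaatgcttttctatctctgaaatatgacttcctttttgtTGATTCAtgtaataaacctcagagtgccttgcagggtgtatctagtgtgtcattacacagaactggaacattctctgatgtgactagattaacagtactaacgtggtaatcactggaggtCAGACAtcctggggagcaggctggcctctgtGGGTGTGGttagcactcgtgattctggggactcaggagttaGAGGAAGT
The motifs were searched on both strands as exact letters: TGANTCA for AP-1, GAGGAAGT for PU.1, TGCTGAC for MAF, CAGACA and GTCTAGAC for SMAD, CACGTG for the E-box, GGGANTTCC for NF-kB, GAAANNGAA for the interferon element and GGGTGTGG for KLF. The 3 Cd209 windows hold none of these letters. Matches occurred in both directions among the genes named by the first rule. Of the higher ones Cd209g and Ppbp hold AP-1 letters and Kmo PU.1 letters, while Enpep holds no match. Of the lower ones Liph, Fscn1 and Tspan7 hold no match, while Syngr1, F11r and Cryba4 do. Sparc holds the MAF letters 111 bases and the CAGACA letters 36 bases before the start. Havcr2 holds AP-1 letters at -200, CAGACA letters at -80, KLF letters at -49 and PU.1 letters at -8. Among 27025 mouse promoters of this length 6.87% hold the AP-1 letters, 2.44% the PU.1 letters, 3.72% the MAF letters, 17.1% CAGACA, 0.174% GTCTAGAC, 6.05% the E-box, 1.42% the NF-kB letters, 7.16% the interferon element and 3.19% the KLF letters. A match is a description of letters and not a bound site.

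Cd209d measured 506, 504, 514 and 595 CPM in sciatic nerve 1 to 4, 0.118 to 0.484 CPM in optic nerve and 0 in all 5 brain libraries. That is 2075-fold higher than in optic nerve and at least 19981-fold higher than in brain (adjusted p 2.79e-11 against the central mean). Cd209b measured 386, 333, 379 and 484 CPM in sciatic nerve, 0 to 0.167 CPM in optic nerve and 0 in brain (adjusted p 6.59e-11). Both genes were thus abundant in every sciatic library and at under 1 CPM in every central one. The traces in optic nerve were themselves called above brain (adjusted p 0.000348 for Cd209d and 0.00933 for Cd209b), so agreement here means low at both sites and not equal. Cd209e measured 15.6, 5.67, 19.1 and 12.3 CPM in sciatic nerve and 0 in all 9 central libraries, at least 322-fold over optic nerve and at least 498-fold over brain. Cd209c followed at 2.13 to 4.12 CPM in sciatic nerve against at most 0.112 CPM. Farther along the chromosome Cd209g measured 503, 259, 271 and 342 CPM against 0.0592 to 0.223 CPM in optic nerve and 0 in brain. Of its 50-base stretches 16.6% are shared with Cd209f, and 29.8% of those of Cd209f with Cd209g, so counts of this pair are uncertain, whereas Cd209a, b, c, d and e share no such stretch with the family. Cd209a and Cd209f rose too, but with at least 1 central library at or above 1 CPM. Of the 30 tested C-type lectins 24 were higher (80.0%, against 20.1% of all genes) and 2 lower, with a median log2 fold change of 5.92 beside -0.02 for all genes, and 6 agreed. The sixth, Clec4a2, a lectin receptor with an inhibitory motif, measured 332 ± 33.6, 67.4 ± 4.83 and 97.6 ± 11.3 CPM in sciatic nerve, optic nerve and brain (log2 fold change 2.03 ± 0.12, SE, adjusted p 1.28e-09). All following triplets of levels are mean ± SD over 4 sciatic, 4 optic nerve and 5 brain libraries, in that order.

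Other genes switched on at the peripheral site and near 0 at both central sites encode a chemokine, enzymes and receptors. Ppbp, the precursor of the neutrophil-attracting chemokine CXCL7, measured 13.1, 18.4, 14.2 and 18.5 CPM in sciatic nerve and had no count in 9 central libraries, at least 392-fold over optic nerve and at least 605-fold over brain. Enpep, the membrane aminopeptidase A that trims angiotensin, measured 94.0, 60.9, 60.0 and 72.5 CPM in sciatic nerve. It had 3 counts in all optic nerve libraries together and 0 in brain. The ratio to optic nerve was 1755-fold, with a 95% counting interval of 601 to 8511, and to brain at least 2709.9-fold. Mucl1, a mucin-like secreted protein gene, measured 10.9, 10.2, 11.1 and 23.8 CPM, highest in sciatic 4, against 1 count in the central libraries. Kmo, kynurenine 3-monooxygenase of tryptophan breakdown, measured 80.9, 69.3, 89.9 and 70.3 CPM in sciatic nerve, 0 to 0.376 CPM in optic nerve and 0 to 0.0933 CPM in brain (adjusted p 5.08e-10). In these 4 genes no central library reached 1 CPM and every sciatic library was at or above 10.2 CPM. Gfra2, the co-receptor for neurturin, measured 36.2, 27.8, 37.7 and 45.2 CPM in sciatic nerve against at most 0.112 CPM in any central library. The orphan receptor gene Gprc5c measured 75.3, 43.0, 62.9 and 50.9 CPM against at most 0.227 CPM.

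The nuclear receptor Pparg, which drives lipid uptake and storage and the identity of several tissue macrophages, was the clearest transcription factor of this kind. It measured 41.3, 47.9, 37.6 and 29.0 CPM in sciatic nerve, 0.302, 0.0538, 0 and 0 CPM in optic nerve 1 to 4 and 0 in brain, 438-fold over optic nerve and at least 1469-fold over brain (adjusted p 1.55e-07). The optic nerve trace was called above brain (adjusted p 0.0361). Of 29 tested transcription factors of peripheral macrophages 20 were higher and 3 lower (69.0% and 10.3%, against 20.1% and 17.0% of all genes). Pparg, Cebpd and Cebpa agreed (10.3% of the 29, against 2.97% of all genes). Cebpa, a myeloid differentiation factor, ran the other way: 23.7, 21.9, 18.1 and 24.6 CPM in sciatic nerve, 88.7, 72.7, 64.3 and 94.0 CPM in optic nerve and 55.2, 97.1, 83.2, 77.2 and 70.5 CPM in brain (log2 fold change -1.83 ± 0.17, adjusted p 1.2e-06). No sciatic library overlapped a central one. Cebpd, a stress-induced relative, was higher at 181 ± 55.1, 84.7 ± 13.2 and 84.9 ± 19.1 CPM (1.09 ± 0.18, adjusted p 0.000172).

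**Figure D3:**
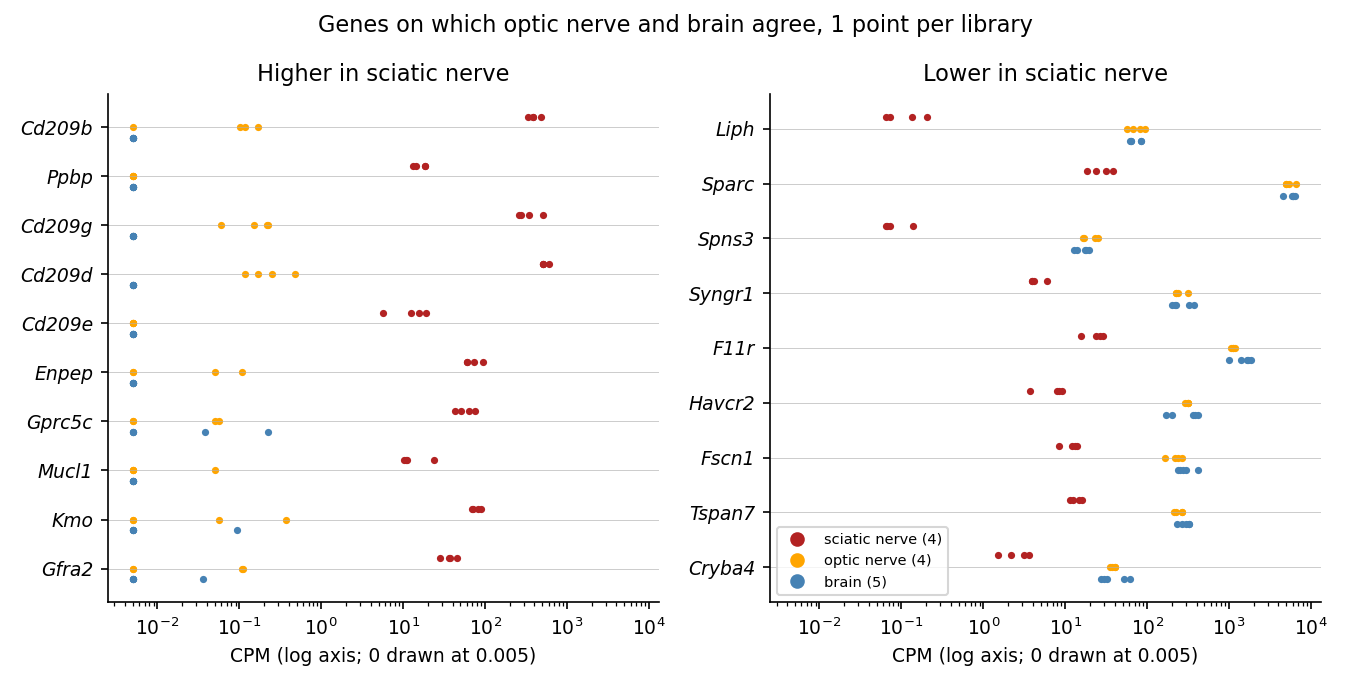
CPM on a log axis (0 drawn at 0.005), 1 point per library, for agreeing genes with the largest smaller fold in each direction, red sciatic nerve, orange optic nerve, blue brain. Orange and blue points lie on the far side of the red points in every row, and in the left panel many of them sit at 0. For Cd209d and Cd209g all blue points sit at 0 and all orange points lie above them.

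Among the genes lost in sciatic nerve relative to both central sites, Sparc had the largest fold of those at high level. It encodes a secreted matrix-binding glycoprotein counted among microglial identity genes (chr11:55394159-55420080). It measured 38.4, 24.0, 18.5 and 31.8 CPM in sciatic nerve, 5376, 4872, 6562 and 4944 CPM in optic nerve and 4483, 6389, 5999.9, 6007 and 5829 CPM in brain. The sciatic mean was 193-fold below optic nerve and 204-fold below brain (log2 fold change -7.63 ± 0.17, adjusted p 1.22e-11), while optic nerve and brain differed by -0.078 ± 0.19 (equivalence adjusted p 0.00320). Every central library stood above every sciatic library.

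Trem2, the lipid-sensing receptor that supports microglial phagocytosis and survival, measured 221, 156, 150.4 and 220.2 CPM in sciatic nerve, 1456, 1584, 1851 and 1363 CPM in optic nerve and 2061, 2234, 1508, 1411 and 1415 CPM in brain (-3.13 ± 0.17, adjusted p 7.69e-09). Cst3, the secreted cysteine protease inhibitor cystatin C, measured 6405, 6453, 5353 and 7303 CPM in sciatic nerve and 37347 to 54382 and 28926 to 47844 CPM in optic nerve and brain (-2.68 ± 0.16, adjusted p 2.88e-08). Brain 1 and 2 were the highest brain libraries for both. Sparc, Trem2 and Cst3 were among the 4 agreeing members of the 28 microglia identity genes, of which 27 were lower (96.4%, against 17.0% of all genes), with a median log2 fold change of -4.83. Another 16 had the optic nerve between brain and sciatic nerve. Tmem119, a membrane protein used to mark microglia, measured 6.85 ± 1.85, 1731 ± 314 and 4732 ± 918 CPM, and P2ry12, the purinergic receptor that steers microglial processes, 141 ± 12.6, 2457 ± 103 and 8377 ± 2772 CPM. Both fell against each site, but the optic nerve held 36.6% and 29.3% of the brain level. Fcrls, an Fc receptor-like scavenger gene, was called against brain only, at 1444 ± 19.5, 1103 ± 112 and 4686 ± 734 CPM.

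Liph, a phospholipase that makes lysophosphatidic acid, was close to absent from sciatic nerve: 0.0654, 0.208, 0.0720 and 0.133 CPM against 56.2 to 93.1 CPM in optic nerve and 61.3 to 84.4 CPM in brain, 622-fold and 596-fold lower (adjusted p 1.77e-11). Havcr2, the inhibitory receptor Tim-3, measured 9.02, 7.96, 3.67 and 8.39 CPM in sciatic nerve, 314, 319, 315 and 292 CPM in optic nerve and 171, 203, 360.0, 412 and 378 CPM in brain (-5.40 ± 0.26, adjusted p 6.07e-09). Syngr1, a vesicle membrane protein better known from synapses, measured 3.89 to 5.95 CPM in sciatic nerve against 222 to 319 and 203 to 370.3 CPM. The tetraspanin Tspan7 measured 11.4 to 15.9 CPM against 210.1 to 268 and 233 to 328 CPM, and the actin-bundling protein gene Fscn1 8.37 to 13.99 CPM against 163 to 263 and 236 to 421 CPM. The tight-junction molecule F11r measured 15.6 to 29.0 CPM against 1062 to 1176 and 995 to 1833 CPM. The sphingolipid transporter gene Spns3 measured 0.0654 to 0.138 CPM against 16.4 to 25.1 and 12.8 to 19.3 CPM, and the crystallin Cryba4 1.51 to 3.60 CPM against 35.4 to 40.8 and 27.1 to 61.0 CPM. None of these 8 genes had a sciatic library within the central range. Agreement of F11r, Fscn1 and Spns3 was kept in 13, 11 and 12 of 21 refits.

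In the list of cathepsins and lysosome genes 19 of 33 tested members met the equivalence test of optic nerve against brain. Of all tested genes 18.4% met it. The 4 members that also met the rule of a called 2-fold difference from each site were lower in sciatic nerve. Of 33 tested cathepsin and lysosome genes 10 were lower (30.3%, against 17.0% of all genes) and 7 higher (21.2%, against 20.1%). Among the agreeing members were Ctsd, Ctsz and Ctsf. Ctsd, the main aspartic protease of lysosomes, measured 1036, 772, 767 and 986 CPM in sciatic nerve, 10189, 10727, 10984 and 11489.8 CPM in optic nerve and 8287, 10513, 12119, 11433 and 12344 CPM in brain (-3.61 ± 0.13, adjusted p 1.83e-10). The optic nerve and brain means were 10847 and 10939 CPM. Ctsz, a carboxypeptidase, measured 1122 ± 116, 3384 ± 368 and 2307 ± 169 CPM (-1.32 ± 0.11), and Ctsf 174 ± 13.2, 404 ± 55.4 and 469 ± 66.4 CPM (-1.32 ± 0.13). Ctsz was also called between optic nerve and brain (adjusted p 0.00308). Ctsc, which activates granule serine proteases, went the other way and split the central sites, at 7742 ± 772, 2121 ± 183 and 1119 ± 387 CPM. With scaling by total counts 18 members were lower and 4 higher.

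Antigen presentation was led by genes on which the central sites differed. Of 18 tested genes of major histocompatibility complex class II presentation 9 were higher and 4 lower (50% and 22.2%, against 20.1% and 17.0% of all genes, the lower share being near the background), and H2-DMb1 alone agreed. H2-DMb1 encodes a chain of the peptide-exchange factor H2-DM and measured 614, 638, 578 and 662 CPM in sciatic nerve, 152, 151, 175 and 142 CPM in optic nerve and 103, 121, 113, 108 and 105 CPM in brain (2.26 ± 0.10, adjusted p 1.24e-10). No central library reached a sciatic one, and optic nerve was called above brain within the margin (adjusted p 0.00380). Reads of H2-DMb1 and its near copy H2-DMb2, at 8.19 ± 2.24, 13.8 ± 1.96 and 5.89 ± 1.47 CPM, may be split by the counting. H2-Aa, the class II alpha chain, measured 13079 ± 1355, 160.3 ± 44.1 and 1.87 ± 2.54 CPM, and its values rose against both sites with the optic nerve between. Ctss, the protease that trims the class II invariant chain, was lower at 3146 ± 295, 23732 ± 2804 and 9101 ± 1517 CPM, and the brain lay between.

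Of the receptors for antibodies Fcgrt and Fcgr2b agreed upward. Fcgrt, the neonatal Fc receptor that recycles immunoglobulin G and albumin, measured 2157, 1873, 1899 and 1980.1 CPM in sciatic nerve, 174, 186, 244 and 212 CPM in optic nerve and 118, 213, 209, 208 and 197 CPM in brain (3.33 ± 0.15, adjusted p 1.72e-10). Fcgr2b, the inhibitory Fc gamma receptor, measured 1006 ± 34.6, 318 ± 34.0 and 399 ± 56.7 CPM (1.50 ± 0.12, adjusted p 6.72e-08). In both genes every sciatic library lay above every central one. The activating receptor Fcgr3 (1774 ± 209, 1957 ± 244 and 1621 ± 152 CPM) and the shared signalling chain Fcer1g (1765 ± 264, 1748 ± 224 and 1224 ± 275 CPM) were not called. Fcgr1, the high-affinity receptor, was lower at 228 ± 17.9, 372 ± 29.9 and 422 ± 45.3 CPM. Of the 8 tested Fc receptor genes 2 were higher and 3 lower (25% and 37.5%, against 20.1% and 17.0% of all genes), so the share of higher members was near that of all genes.

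Haem handling carried 3 agreeing genes. Of 18 tested iron and haem genes 13 were higher (72.2%, against 20.1% of all genes). Blvrb, a biliverdin reductase, measured 326, 306, 252 and 281 CPM in sciatic nerve, 33.7, 37.6, 42.5 and 35.9 CPM in optic nerve and 50.8, 48.0, 27.7, 23.4 and 28.8 CPM in brain (2.99 ± 0.19, adjusted p 5.57e-09). Its partner Blvra measured 185 ± 39.3, 57.8 ± 6.97 and 44.5 ± 10.6 CPM (1.87 ± 0.17), and Slc48a1, which moves haem out of endolysosomes, 115 ± 14.9, 50.1 ± 16.4 and 43.9 ± 8.67 CPM (1.29 ± 0.20). Hmox1, the haem oxygenase acting before them, rose against both sites too, but optic nerve and brain were far apart at 1162 ± 422, 468 ± 90.9 and 30.5 ± 10.6 CPM. Cd163, the haemoglobin scavenger receptor, did the same at 1323 ± 221, 29.5 ± 17.3 and 0.00835 ± 0.0187 CPM.

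Lipid handling genes held agreeing members in both directions. Of 33 tested ones 17 were higher (51.5%, against 20.1% of all genes) and 6 lower (18.2%, near the 17.0% of all genes). Agreement was met by 2 of them (6.06%, against 2.97% of all genes). Lipa, lysosomal acid lipase, agreed at 484 ± 24.0, 176 ± 21.8 and 216 ± 66.2 CPM (1.31 ± 0.18, adjusted p 2.47e-05). Lpcat2, which makes platelet-activating factor and membrane phospholipids, agreed downward: 167, 144, 145 and 153 CPM in sciatic nerve, 1892, 2026, 2296 and 1690.4 CPM in optic nerve and 1211, 1826, 2728, 2752 and 2647 CPM in brain (-3.79 ± 0.19, adjusted p 5.55e-09). Every sciatic library lay below every central one. Apoe, the main lipid carrier of the brain, was split at 25973 ± 5802, 9503 ± 1076 and 307 ± 101 CPM. The plot of list pairs shows these agreeing and split members side by side.

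**Figure D4:**
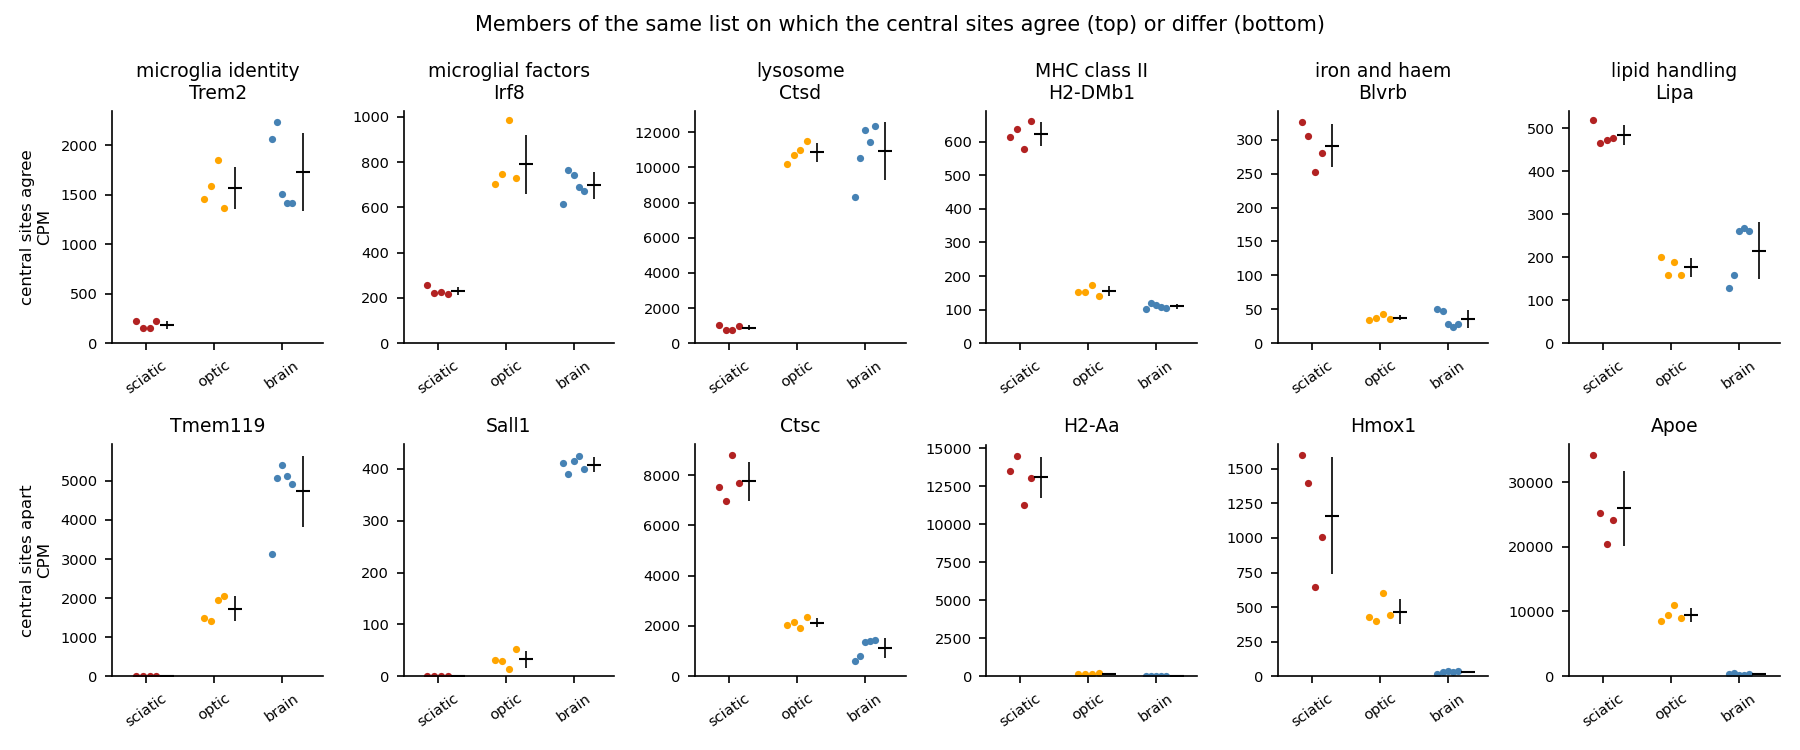
CPM per library (points) with mean ± SD (bars) for 1 agreeing gene (top row) and 1 gene on which the central sites differ (bottom row) of each of 6 lists. Trem2, Irf8, Ctsd, H2-DMb1, Blvrb and Lipa have optic nerve beside brain, whereas Tmem119, Sall1, Ctsc, H2-Aa, Hmox1 and Apoe have them apart.

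Transcription factors of microglia split in the same way. Irf8, a myeloid factor that microglia need, agreed at 257, 224, 225 and 219 CPM in sciatic nerve, 703, 747, 985 and 729 CPM in optic nerve and 616, 765, 742, 690.0 and 671 CPM in brain (-1.68 ± 0.12, adjusted p 6.78e-08), and every sciatic library lay below every central one. Foxp1, a forkhead repressor, agreed upward at 131 ± 13.7, 34.1 ± 8.44 and 49.0 ± 3.33 CPM (1.68 ± 0.15), though it was called between optic nerve and brain within the margin (adjusted p 0.0222) and kept its agreement in 12 of 21 refits. Sall1, the defining microglial factor, did not agree: 0.196, 0.0692, 0.216 and 0.0666 CPM in sciatic nerve, 30.9, 30.2, 14.8 and 53.4 CPM in optic nerve and 412, 391, 415, 426 and 399 CPM in brain. Optic nerve lay between, -3.66 ± 0.26 below brain on the log2 scale (adjusted p 2.13e-07). Spi1, the PU.1 gene of all macrophages, was not called at 351 ± 40.5, 425 ± 47.4 and 345 ± 48.6 CPM. Of 16 tested microglial factors 3 were higher and 9 lower (18.8% and 56.3%, against 20.1% and 17.0% of all genes).

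The TGF-beta pathway was followed from ligand to transducer. Among 7 tested ligands and activators 2 were higher and 1 lower (28.6% and 14.3%), near the 20.1% and 17.0% of all genes. Tgfb1, the ligand itself, was not called at 142 ± 22.2, 164 ± 15.6 and 158 ± 20.7 CPM, nor was its processing protease Furin at 54.6 ± 11.8, 47.3 ± 3.34 and 53.3 ± 13.7 CPM. Nrros, which anchors latent TGF-beta1 on microglia and macrophages, agreed upward: 739, 609, 768 and 621 CPM in sciatic nerve, 266, 305, 374 and 318 CPM in optic nerve and 219.8, 260.4, 387, 379.9 and 448 CPM in brain (1.06 ± 0.18, adjusted p 0.00014). Every sciatic library lay above every central one, and agreement was kept in 14 of 21 refits. Itgav, the integrin chain that releases the ligand, was lower at 29.9 ± 2.26, 74.3 ± 14.3 and 203 ± 52.6 CPM. Of 10 receptors 2 were higher and 6 lower (20.0% and 60.0%, against 20.1% and 17.0%). Tgfbr1, the type I receptor, fell against both sites with the optic nerve between, at 102 ± 36.1, 621 ± 35.6 and 2156 ± 743 CPM. Of 14 transducers and inhibitors 2 were higher and 7 lower (14.3% and 50%, against 20.1% and 17.0%). Smad2 (92.7 ± 10.4, 80.1 ± 9.50 and 70.6 ± 30.0 CPM) and Smad4 (94.3 ± 21.9, 76.7 ± 16.6 and 84.2 ± 16.5 CPM) were not called, whereas Smad3 (9.38 ± 4.95, 23.4 ± 3.81 and 60.5 ± 20.3 CPM) and the inhibitors Smad7 (2.79 ± 2.08, 34.8 ± 1.33 and 48.4 ± 6.44 CPM), Pmepa1 (27.1 ± 1.43, 225 ± 15.4 and 516 ± 250.4 CPM) and Ski (73.3 ± 11.9, 134 ± 28.4 and 227 ± 26.3 CPM) were lower. The 2 higher members were inhibitors as well, Skil (422 ± 95.4, 559 ± 59.3 and 148 ± 41.3 CPM) and Tgif1 (525 ± 138, 515 ± 70.6 and 47.4 ± 12.9 CPM), and both were called against brain only. The call of Skil was lost without sciatic 3 (adjusted p 0.146), sciatic 4 (0.0532) or optic nerve 3 (0.0505) and with scaling by total counts (0.285). No receptor, transducer or inhibitor agreed. With scaling by total counts 10 transducers were lower and 1 higher.

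Of 18 purinergic genes 7 were higher and 7 lower (38.9% each, against 20.1% and 17.0% of all genes). P2rx4, an ATP-gated channel, agreed at 335 ± 18.7, 165 ± 33.2 and 108 ± 5.53 CPM (1.33 ± 0.12), in 8 of 21 refits. P2ry1, an ADP receptor, was low and agreed at 2.62 ± 0.539, 0.0820 ± 0.128 and 0 ± 0 CPM. Among 17 semaphorins, plexins and neuropilins 9 were higher and 4 lower (52.9% and 23.5%) and 2 agreed. Of these Nrp1, a receptor for semaphorins and vascular growth factor, measured 483 ± 50.6, 156 ± 23.9 and 216 ± 19.8 CPM (1.40 ± 0.12, adjusted p 1.65e-07). Of 14 integrins 4 were higher and 8 lower (28.6% and 57.1%), and Itgb5 agreed downward: 248, 207, 311 and 204 CPM in sciatic nerve, 1896 to 2649 CPM in optic nerve and 1149 to 2640.3 CPM in brain (-3.18 ± 0.20, adjusted p 5.45e-08). Further agreeing members of the lists were Igfbp4, a binding protein for insulin-like growth factors (784 ± 22.2, 58.6 ± 15.1 and 42.4 ± 10.8 CPM), Cd55, an inhibitor of complement (10.0 ± 6.89, 0.0405 ± 0.0530 and 0 ± 0 CPM), the chemokine Ccl11 (1.04 to 3.26 CPM in sciatic nerve, 0 in every central library) and the potassium channel Kcnq1 (5.88 ± 1.84, 0.0287 ± 0.0332 and 0 ± 0 CPM). Downward they were Cd9, a tetraspanin (183 ± 34.6, 1864 ± 241 and 1503 ± 206 CPM), the lipopolysaccharide co-receptor Cd180 (30.2 ± 6.62, 91.6 ± 17.5 and 90.9 ± 14.8 CPM), Cd300c2 (104 ± 16.2, 416 ± 29.9 and 332 ± 60.6 CPM), the granulocyte growth factor receptor Csf3r (29.6 ± 16.3, 241 ± 65.3 and 233 ± 50.4 CPM), the proton channel Hvcn1 (8.12 ± 2.62, 103 ± 12.7 and 113 ± 38.1 CPM) and the glycolytic enzyme Pfkl (38.5 ± 12.9, 127 ± 19.2 and 118 ± 23.2 CPM). Agreement of Igfbp4 and Csf3r was kept in 10 and 11 of 21 refits.

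Outside the naming rule, and chosen after their values were seen, some agreeing genes at high level kept their agreement in all 21 refits. Sepp1, selenoprotein P, which carries selenium, measured 11521, 10466, 11059 and 11973 CPM in sciatic nerve, 2849, 2808, 2936 and 2559 CPM in optic nerve and 2256, 2791, 3169, 3255 and 3458 CPM in brain (1.96 ± 0.12, adjusted p 3.04e-09). Rgl1, an activator of Ral, measured 828 ± 35.2, 99.8 ± 16.7 and 109 ± 14.6 CPM (2.99 ± 0.13), the plasma membrane calcium pump Atp2b1 655 ± 62.3, 158 ± 24.6 and 161 ± 60.7 CPM (2.03 ± 0.20) and the amyloid precursor gene App 557 ± 49.2, 195 ± 21.3 and 182 ± 60.0 CPM (1.56 ± 0.19). Lgmn, the asparaginyl endopeptidase legumain of lysosomes, was lower at 1521 ± 113, 3662 ± 169 and 4127 ± 548 CPM (-1.35 ± 0.11), the kinase Sgk1 at 88.5 ± 16.9, 767 ± 139.7 and 698 ± 187 CPM (-3.05 ± 0.19) and the membrane-bending protein gene Bin1 at 253 ± 52.5, 925 ± 108 and 982 ± 78.6 CPM (-1.92 ± 0.13). For each of these genes the sciatic libraries lay outside the range of the 9 central libraries.

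In several lists most members were called while 0 or 1 agreed. Agreement was met by 3.70% of the immediate early and 4.55% of the border macrophage genes, beside 2.97% of all tested genes. In lists of this size 0 or 1 agreeing member does not set a list apart from all genes. Of 27 immediate early genes 25 were higher (92.6%, against 20.1% of all genes) and 1 lower, and 15 of them were called against brain only; the agreeing one was Rhob, a small GTPase, lower at 87.3 ± 18.1, 255 ± 76.3 and 314 ± 64.3 CPM. Of 22 interferon-response genes 17 were higher (77.3%), 10 against brain only, and none agreed. Of 20 inflammatory cytokines and NF-kB targets 16 were higher (80.0%) and 1 lower, and of 22 cell cycle genes 13 were higher (59.1%) and 11 against brain only, again with none agreeing. The summed immediate early genes given above moved with these lists, and their part in the results was not tested. All 22 tested border and perivascular macrophage genes were higher with a median log2 fold change of 8.05, and 17 had the optic nerve between. Retnla, a secreted product of alternatively activated macrophages, measured 14268, 10883, 11581 and 21001 CPM in sciatic nerve, 41.2, 28.2, 23.1 and 13.3 CPM in optic nerve and 0 in brain. Of 329 tested Zfp zinc finger genes 13 were higher (3.95%, against 20.1% of all genes) and 74 lower (22.5%, near the 17.0% of all genes), 58 of the called ones against brain only. With scaling by total counts 10 were higher and 114 lower. The stacked bars of list classes show the agreeing share of each list, to be read beside the 2.97% of all tested genes. Among the lists drawn it ran from 0% for the interferon response to 20% for the C-type lectins.

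**Figure D5:**
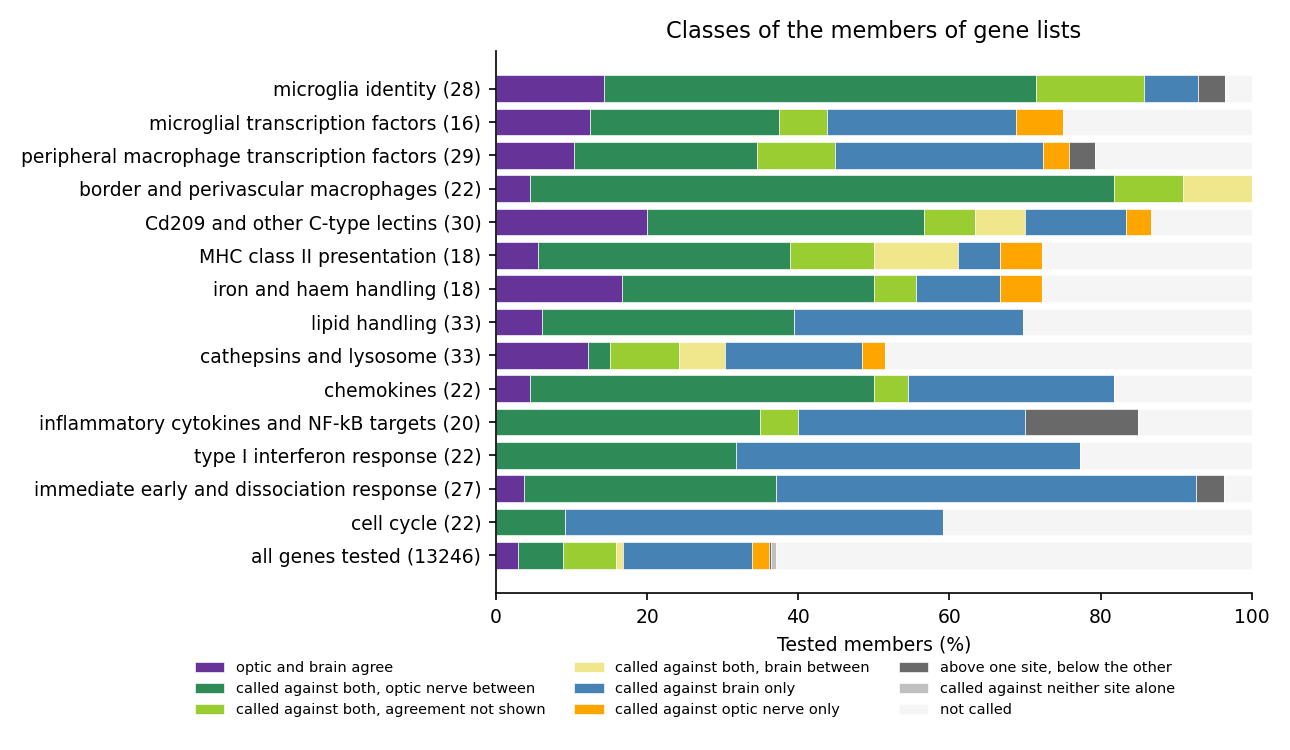
Tested members of 14 gene lists and all tested genes, as percent (horizontal axis) in each class; the number of members stands in brackets. Purple, the genes on which optic nerve and brain agree, makes 2.97% of all tested genes. It reaches 6 of 30 for the C-type lectins and 4 of 28 for microglia identity, and is missing from interferon response, inflammatory targets and cell cycle.

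For 29 genes the sciatic nerve was called above one central site and below the other. Gpr84, a receptor for medium-chain fatty acids, measured 352, 319, 331 and 215 CPM in sciatic nerve, 2432, 2438, 3416 and 2251 CPM in optic nerve and 171, 166, 233, 206 and 232 CPM in brain. Sciatic nerve was -3.11 against optic nerve and 0.59 against brain on the log2 scale (adjusted p 3.54e-08 and 0.0131). Csf1, the growth factor of macrophages, measured 25.2 ± 6.14, 142 ± 17.2 and 14.8 ± 5.23 CPM (-2.49 and 0.76, adjusted p 1.39e-05 and 0.0260), and Id2, an inhibitor of helix-loop-helix factors, 456 ± 40.7, 1421 ± 322 and 37.3 ± 10.7 CPM. In these 3 genes the optic nerve libraries were the highest.

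Genes with at most 3 counts over the whole sciatic group, or over each central group, and at least 10 CPM in every library of the other side were rare. Off in sciatic nerve were Slco4a1, an organic anion transporter, with 1 count, Tmem8c, a membrane protein required for muscle cell fusion, with 2, and Mrc2, a collagen-binding lectin receptor, with 2. Mrc2 measured 17.1 to 22.96 CPM in optic nerve and 25.6 to 36.8 CPM in brain. On in sciatic nerve were Enpep, Ppbp and Mucl1. Apart from rescaling, leaving out a library eases this rule, so such refits can add genes and do not test the ones named. Without sciatic 2 or sciatic 4 there were 5 and 6 genes off in sciatic nerve. Without optic nerve 1, 3 or 4 or brain 1 there were 5 on in sciatic nerve, and without optic nerve 2 there were 8.

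Along the chromosomes 18 of the 349 agreeing genes found among protein-coding genes of the reference stood next to another one changed in the same direction, in 7 runs. How many such neighbours genes in general would give was not computed, so these numbers are a description. Besides the Cd209 run there were Wwp1, Slc7a13 and Atp6v0d2 on chromosome 4, Pira2, Gm14548 and Lilra6 on chromosome 7 (near copies whose reads may be split), Fh1 and Kmo on chromosome 1, Arhgef10 and Kbtbd11 on chromosome 8, Dcn and Lum on chromosome 10, and, lower, Bckdha and Exosc5 on chromosome 7. Wwp1, a ubiquitin ligase, measured 353 ± 38.6, 16.8 ± 4.32 and 21.9 ± 6.57 CPM, and Fh1, fumarate hydratase, 157 ± 11.2, 51.6 ± 12.6 and 43.8 ± 7.39 CPM. Agreement of Bckdha, Lum, Wwp1 and Pira2 was kept in 7, 12, 13 and 13 of 21 refits, and that of the other members in at least 20.

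Some agreeing genes are markers of other cells of the nerve. All 7 tested fibroblast markers were higher (100%, against 20.1% of all genes), 2 of them against brain only. Dcn, Lum, Col1a1 and Col1a2, matrix proteins of connective tissue, agreed (57.1%, against 2.97% of all genes). Agreement of Lum was kept in 12 of 21 refits. Dcn, decorin, measured 83.4, 22.7, 14.6 and 10.1 CPM in sciatic nerve and at most 0.237 CPM in any central library, and sciatic 1 was the highest. Of the adipocyte markers Cfd and Car3 agreed, at 3.73, 4.29, 0.936 and 1.47 and 8.11, 7.40, 2.23 and 6.40 CPM in sciatic nerve. Acta2, a smooth muscle actin, measured 14.8, 2.56, 1.44 and 0.866 CPM in sciatic nerve. The 8 monocyte markers summed to 390 to 563 CPM in sciatic nerve against 0.712 to 23.6 CPM, of which Ccr2, the receptor that draws monocytes into tissue, made 458 ± 70.6, 9.49 ± 4.08 and 4.01 ± 3.68 CPM. The part of such cells in the agreeing genes of low level was not tested.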

How the data were processed

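RNA sequencing libraries of sciatic nerve macrophages, optic nerve macrophages and brain microglia were analysed from 1 count table. The table holds whole counts of reads per gene symbol as deposited. Per the submitters' processing notes, the authors used STAR with mm10 and featureCounts 1.5.1. The remaining settings stay unknown (STAR version, annotation, strand and multiply mapped reads: not given in the sources used here). Nerve libraries were matched by the initials and numbers of their columns. Columns whose prefix has no explanation are 5 in number and were assigned to brain, the remaining group, by elimination. No column was left over (0 unused). The other assays of the study were not analysed here.

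Counts were tested in R 4.3.3 with edgeR 4.0.16: filterByExpr by group, TMM scaling, 1 quasi-likelihood fit with 3 groups and all 13 libraries, the contrast of sciatic nerve with weights of 0.5 on optic nerve and brain, and Benjamini-Hochberg adjustment over all 13246 genes. CPM are counts per 1e6 of the TMM-scaled library, and errors of log2 fold changes are standard errors of the fit. A group without a count is set to 3 counts over the group for fold bounds (0.0512, 0.0409 and 0.0265 CPM in sciatic nerve, optic nerve and brain). These bounds and the 95% Poisson intervals cover counting error only. No pair of libraries within a group agreed within sampling noise (lowest chi-square per degree of freedom 15.0). The steps were tested on simulated counts. Alternatives used DESeq2 1.42.0, other filters, scalings, margins and left-out libraries.

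Genes were named as the 10 agreeing genes per direction with the largest size of the smaller log2 fold change (at least 10 CPM), up to 4 agreeing members per list, members against their list's direction or with the largest difference between the central sites, abundant markers of other cells and the on or off genes. Of the 168 genes so named the text gives a part, and 1 of the first 20 is not reported here. The comparison, the members and the lists were chosen with earlier results of these data known. The search for motifs is not given as a share of the agreeing genes, since too few of them had a listed promoter.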

Additional observations from a re-analysis of the deposited data

Results flagged for a closer look

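The highest or lowest library stood apart from the rest of its group, by the gap to the nearest library over the group's range, in 23 of 299 groups of 4 or 5 libraries of the printed genes; chance gives about 1 in 20 groups. In sciatic nerve the highest library stood apart for Acta2 (14.8 CPM in sciatic 1 against at most 2.56), Col1a1 (10.98 CPM in sciatic 1 against at most 2.66), Bin1 (331 CPM in sciatic 1), Irf8 (257 CPM in sciatic 1) and Syngr1 (5.95 CPM in sciatic 1). The same held for Cd209d (595 CPM in sciatic 4), Cd55 (20.3 CPM in sciatic 4 against at most 7.56) and Mucl1 (23.8 CPM in sciatic 4 against at most 11.1). In optic nerve Gpr84 (3416 CPM), Irf8 (985 CPM) and Syngr1 (319 CPM) were highest in optic nerve 3, and Cd9 (1505 CPM) and Havcr2 (292 CPM) lowest in optic nerve 4. In brain library 1 was lowest for Fcgr2b (302 CPM), Fcgrt (118 CPM), Mib2 (33.2 CPM), Phyhd1 (18.4 CPM) and Tmem119 (3123 CPM) and highest for Igfbp4 (61.6 CPM). Brain 2 was highest for Apoe (480.2 CPM), Cebpd (119 CPM) and Fcgr1 (502 CPM), and brain 5 for H2-Aa (6.22 CPM against at most 1.59).

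Gpr84, Csf1 and Id2 stood below optic nerve and above brain in sciatic nerve, and the central sites differed by edgeR's test: optic nerve was above brain by 3.71 for Gpr84 (adjusted p 1.8e-09), 3.25 for Csf1 (adjusted p 3.35e-07) and 5.25 for Id2 (adjusted p 5.1e-10) on the log2 scale.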

How the results depend on the processing

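Leaving out 1 library at a time gave 2312 to 2959 higher and 1906 to 2447 lower genes, 233 to 283 higher and 105 to 165 lower agreeing genes, 2038 to 2391 genes called against brain only and 227 to 385 against optic nerve only, 3 to 8 genes on and 3 to 6 off in sciatic nerve. Without brain 1 and 2, an alternative added after seeing the data, 486 genes were called against optic nerve only and 5 were on in sciatic nerve. Scaling by total counts, also added, gave 3669 lower and 220 lower agreeing genes. Fitted as 2 groups, the comparison called 1454 genes higher, 40 named genes lost their call, and Acod1 (-1.76), Ccr7 (-1.28) and H2-Q6 (-0.068) changed sign without a call (adjusted p 0.523, 0.645 and 0.969). A test against a 1.5-fold change called 1707 higher and 1336 lower genes. An adjusted p under 0.01 left 1448 lower, 146 and 75 agreeing and 189 optic-only genes. The stricter filter left 145 higher agreeing genes, fewer because fewer genes were tested. A margin of 1.5-fold gave 158 and 4, of 4-fold 466 and 539, a rule of no call and a log2 difference under 1 between the central sites 395 and 446, equivalence alone 95 higher, and at least 4-fold 47 lower. Of the 393 agreeing genes DESeq2's Wald test shared 383 of its 454 the fit without a filter 314 of its 434, scaling by total counts 290 of its 441, the stricter filter 256 of its 301 and the replicate block 304 of its 320.

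Libraries of the same number had correlations of deviations of -0.0776 to 0.0773, and pairs of other numbers -0.0982 to 0.0982. Brain numbers were those of the columns. Such correlations cannot show whether libraries came from the same animals. With the replicate block 2422 genes were higher, 1917 lower, 216 and 104 agreed, and 2052 were called against brain only and 278 against optic nerve only. The cause of these changes was not tested. Genes under about 1 CPM rest on few counts.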

Other observations

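The following agreeing genes were chosen after their values were seen, and all levels are for sciatic nerve, optic nerve and brain. Enzymes of metabolism agreed in both directions. Idh1 and Idh2, the NADP-dependent isocitrate dehydrogenases, were higher at 211 ± 53.6, 81.5 ± 5.55 and 69.7 ± 16.8 CPM (1.48 ± 0.18) and 328 ± 56.5, 127 ± 22.2 and 162 ± 28.8 CPM (1.19 ± 0.16), and so was Acat1, the mitochondrial thiolase of ketone and isoleucine metabolism, at 281 ± 35.2, 108 ± 7.01 and 75.2 ± 13.7 CPM (1.64 ± 0.14, agreeing in 14 of 21 refits). Acads, the short-chain acyl-CoA dehydrogenase, was lower at 25.6 ± 8.25, 77.2 ± 10.7 and 71.9 ± 9.23 CPM (-1.54 ± 0.18), and Mlycd, malonyl-CoA decarboxylase, at 15.96 ± 2.43, 37.9 ± 13.6 and 39.7 ± 6.52 CPM (-1.28 ± 0.22). Sphingolipid enzymes went both ways too. Ugcg, which makes glucosylceramide, was higher at 237 ± 41.4, 58.6 ± 12.8 and 50.6 ± 18.8 CPM (2.12 ± 0.23, agreeing in 15 of 21 refits), and Sgms1, a sphingomyelin synthase, at 200.5 ± 41.7, 33.4 ± 3.66 and 37.3 ± 10.0 CPM (2.51 ± 0.19). St3gal5, a ganglioside synthase, was lower at 23.7 ± 6.74, 234 ± 21.6 and 249.7 ± 36.2 CPM (-3.35 ± 0.17). Arntl, the clock factor Bmal1, measured 45.6 ± 7.95, 11.4 ± 1.57 and 12.3 ± 4.55 CPM (1.95 ± 0.24). All 9 tested Ms4a genes, which encode 4-pass membrane proteins of immune cells, were higher (100%, against 20.1% of all genes). Of these 2 were called against brain only and 5 had the optic nerve between. Ms4a14 agreed (11.1% of the 9, against 2.97% of all genes).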
